A study of Mus musculus with 12 samples.

Results

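The small RNAs of the mouse thymus were compared between 3 months (3M) and 6 weeks (6W) of age, over 822 miRNAs that passed an expression filter out of 2006 rows in the deposited miRNA table. The filter asked for a level of about 10 counts in at least 2 of the 6 small RNA libraries. The animals were male wild type C57BL/6 mice with no treatment or transgene named in the labels. Small RNA of 18 to 30 nt was sequenced from 2 thymuses at each age, so that 4 of the 12 libraries of the series enter the comparison. Libraries at 2 weeks (2W), from mice of the same sex, strain and genotype, entered the fit for the estimate of spread, and their levels are given beside the others. The miRNA counts summed to 9181478 to 10994118 per library. All thymic cells were sequenced together, and a fall in the number of cells of one type cannot be told apart from less of an RNA per cell.

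A miRNA is a short RNA that pairs with messenger RNAs, mainly through bases 2 to 8 of its 5′ end, the seed, and lowers their translation and stability. miRNAs with the same seed form a family, and miRNAs made from one primary transcript form a genomic cluster. Many are made mainly in one cell type. In the thymus, miR-181a is the characteristic miRNA of developing T cells, miR-205 and the miR-200 family mark epithelium, and miR-144, miR-451 and miR-486 mark red blood cells and their precursors. Mice of 6W are young adults, and age-related loss of thymic tissue, called involution, is under way in older adults.

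The mature sequences of the miRNAs on which the comparison turns are given here as deposited, with the seed in capitals. Rows whose name starts with mmu are mouse miRNAs, and each mouse name found in RefSeq had the same sequence there (809 of 976 mouse names). Rows without this prefix carry a family name with the suffix x, y or z, whose meaning is not given in the sources used here. The first group is from the imprinted Gnas region.
mmu-miR-296-3p: gAGGGTTGggtggaggctctcc
miR-296-y: gAGGGTTGggtggaggctctccat
mmu-miR-298-5p: gGCAGAGGagggctgttcttccc
miR-298-x: gGCAGAGGagggctgttcttaa

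In the GRCm38.p6 assembly of RefSeq, miR-296-3p lies at chr2:174267058-174267079 and miR-298-5p at chr2:174267553-174267575, both on the minus strand. Besides their own miRNA genes no gene of the annotation covers either position, and Gnas starts at a higher coordinate. The row miR-296-y has all 22 bases of miR-296-3p followed by 2 further bases, and miR-298-x shares its first 20 bases with miR-298-5p. These rows are therefore near copies of the mouse rows, counted separately by the authors, and are not independent of them.

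The next group shows the epithelial miR-205, the erythroid miR-144, miR-451 and miR-486, and a near copy of each.
mmu-miR-205-5p: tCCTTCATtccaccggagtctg
miR-205-x: tCCTTCATtccaccggagtctgaa
mmu-miR-486a-5p: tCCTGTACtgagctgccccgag
miR-486-x: tCCTGTACtgagctgccccgagttt
mmu-miR-144-3p: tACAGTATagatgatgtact
miR-144-y: tACAGTATagatgatgtactct
mmu-miR-451a: aAACCGTTaccattactgagtt
miR-451-x: aAACCGTTaccattactgagtttag

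The miR-205-5p sequence lies at chr1:193507503-193507524 on the minus strand (GRCm38.p6), inside the host transcript Mir205hg. miR-144-3p lies at chr11:78073047-78073066 and miR-451a at chr11:78073186-78073207, both on the plus strand, and they form a cluster. The mouse rows miR-486a-5p and miR-486b-5p have the same sequence, so that their counts cannot be told apart.

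The last groups show families in which rows of different genes share a seed, first miR-29, then miR-125 with miR-351 and lin-4.
mmu-miR-29a-3p: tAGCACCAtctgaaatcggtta
mmu-miR-29b-3p: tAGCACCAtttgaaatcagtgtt
mmu-miR-29c-3p: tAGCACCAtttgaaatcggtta
miR-29-y: tAGCACCAtctgaaatcggaa
mmu-miR-125a-5p: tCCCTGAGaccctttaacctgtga
mmu-miR-125b-5p: tCCCTGAGaccctaacttgtga
lin-4-x: tCCCTGAGacctaacttgtg
mmu-miR-351-5p: tCCCTGAGgagccctttgagcctg

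In GRCm38.p6, miR-29a-3p lies at chr6:31062673-31062694 on the minus strand and miR-29c-3p at chr1:195037600-195037621 on the plus strand, inside the transcript A330023F24Rik. miR-29b-3p is made from a gene beside each of them. miR-125a-5p lies at chr17:17830817-17830840 inside the gene Spaca6. miR-125b-5p is made from chr9:41581940-41581961 and chr16:77646279-77646300, all on the plus strand, while miR-351-5p lies on the X chromosome at chrX:53053315-53053338 on the minus strand. The row miR-29-y shares its first 19 bases with miR-29a-3p.

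Counts were compared with edgeR's quasi-likelihood F test, and levels are given in counts per 1000000 after TMM scaling (CPM). Calls follow 2 rules. A miRNA is called when its Benjamini-Hochberg adjusted p is under 0.05, and only called miRNAs are said to have risen or fallen. The study threshold is passed where the unadjusted p is under 0.05 and the log2 fold change is over 1 in either direction. For any one miRNA, 2 libraries against 2 allow no two-sided exact permutation p below 0.333. At 3M, 4 miRNAs rose and 3 fell (7 of 822, 0.852%). At the study threshold, 61 miRNAs differed (7.42%), of which 37 were higher at 3M (4.50% of those tested) and 24 lower (2.92%). Over all tested miRNAs the log2 fold change had a median of 0.02, and 423 of them were above 0. The 3M libraries lay wholly above the 6W libraries for 218 miRNAs (26.5%) and wholly below for 23.6%. Without 6W replicate 1 or without 6W replicate 2, none of the 822 was called by edgeR, while 67 and 95 had an unadjusted p under 0.05, so that the 7 calls need both 6W libraries. An unadjusted p under 0.05 was reached by 148 of the 822 with all libraries, of which those higher at 3M were 10.7% of the 822 and those lower 7.30%. With DESeq2, 44 miRNAs were called, and all 7 were among them.

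The miRNAs that fell were miR-296-3p, miR-296-y and miR-298-5p, and those that rose were miR-205-5p, miR-29-y, miR-29c-3p and miR-486-x. In each of the 7, both 3M libraries lay outside the range of the 6W libraries.

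**Figure D1:**
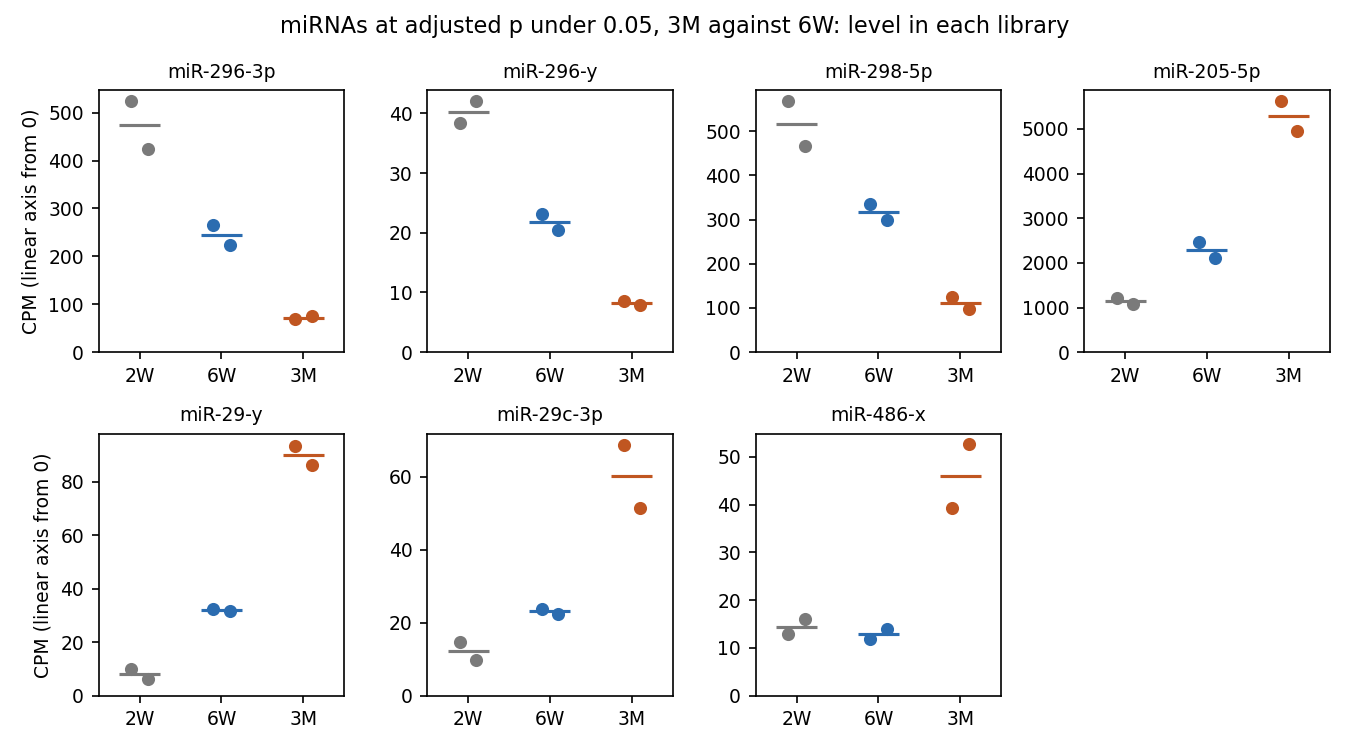
Level of the 7 called miRNAs in each library, in CPM on linear axes from 0, with 1 point per library and a line at the mean of each age. At 3M the 3 rows of miR-296 and miR-298 lie below both 6W libraries, and the other 4 rows lie above them.

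**Figure D2:**
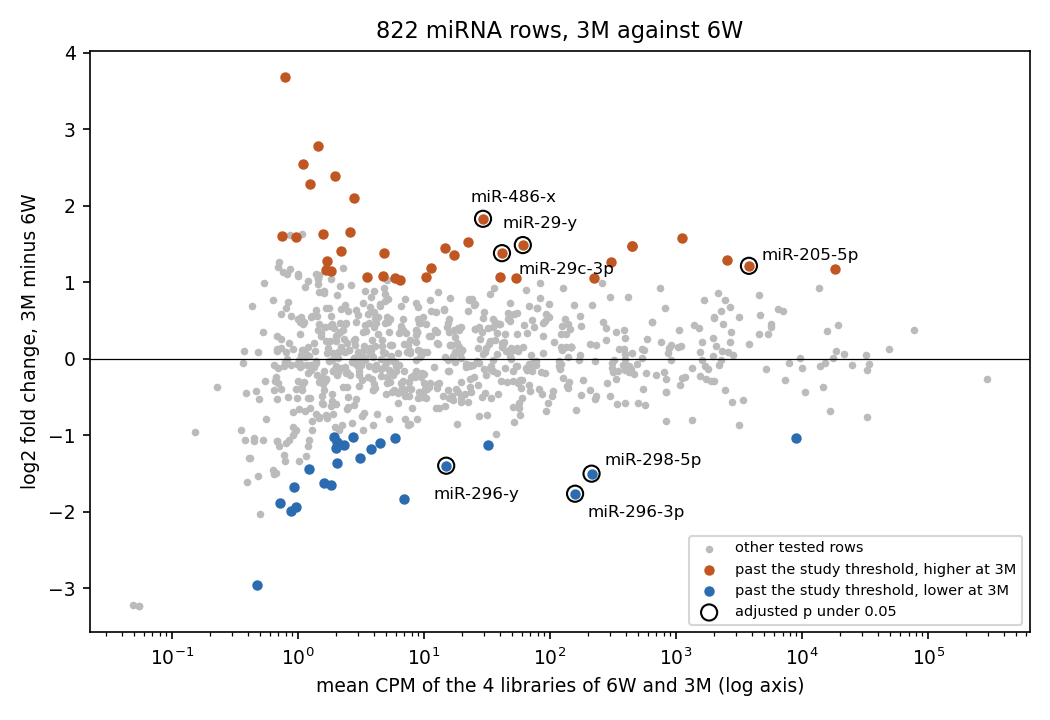
Log2 fold change of 3M minus 6W for the 822 tested rows (vertical axis) against the mean CPM of the 4 libraries (horizontal log axis). Of the 61 rows past the study threshold, 37 lie above and 24 below 0, and the 7 circled rows are those with an adjusted p under 0.05.

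The miR-296 and miR-298 cluster had the largest falls among the called miRNAs. Both lie beside the imprinted Gnas locus, where the parental copies are not expressed alike. miR-296-3p stood at 266 and 224 CPM in the 6W libraries and at 69.3 and 74.8 CPM in the 3M libraries. It fell 3.39-fold, from 245 ± 29.6 (SD, n = 2) to 72.1 ± 3.85 CPM. This was a log2 fold change of -1.76 (SE, the standard error, 0.22), with 0.011 as the adjusted p. Both 3M libraries lay far below both 6W libraries.

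miR-298-5p was at 334 and 298 CPM at 6W and at 125 and 97.8 CPM at 3M. It fell 2.83-fold (log2 fold change -1.50, SE 0.23, adjusted p = 0.017). The near copy miR-296-y fell from 23.1 and 20.5 to 8.57 and 7.97 CPM (log2 fold change -1.40, SE 0.22, adjusted p = 0.019). All 6 tested rows of the 2 hairpins were lower at 3M and none of their libraries overlapped. Of all tested miRNAs, 23.6% were wholly below at 3M. Of the 6, 1 reached the level of the expression filter in fewer than 2 of the 4 libraries compared, having passed with the 2W libraries. Past the study threshold were 4 of the 6, against 2.92% of all tested miRNAs, and the median of the 6 was -1.45.

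The other rows of the cluster were not called by edgeR with all libraries. DESeq2 called 4 of the 6 rows lower, miR-298-x among them, against 1.82% of all tested miRNAs. miR-298-x was at 10.7 and 11.2 CPM at 6W and at 4.15 and 1.86 CPM at 3M, with a log2 fold change of -1.84 (SE 0.37) and an adjusted p of 0.051. The opposite arm of the first hairpin, miR-296-5p, was at 10.2 and 8.99 CPM at 6W and at 5.59 and 4.91 CPM at 3M (log2 fold change -0.86, adjusted p = 0.11). The level of the cluster as a whole, summed over its 8 rows, was 645 and 563 CPM at 6W and 213 and 188 CPM at 3M. At 2W it was 1174 and 971 CPM, above every 6W and 3M library. Gnas, the neighbouring gene, was measured in the RNA libraries at 415 and 438 CPM at 6W and at 396 and 413 CPM at 3M (log2 fold change -0.08, SE 0.10, adjusted p = 0.75).

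miR-205, which is made in the basal cells of stratified epithelium and in thymic epithelium, was the most abundant miRNA that was called. miR-205-5p stood at 2467 and 2098 CPM at 6W and at 5632 and 4961 CPM at 3M. It rose 2.32-fold, from 2283 ± 261 to 5296 ± 474 CPM (SD, n = 2), with a log2 fold change of 1.21 (SE 0.20, adjusted p = 0.019). At 2W it was at 1211 and 1070 CPM, the lowest of the ages. The near copy miR-205-x was at 185 and 145.8 CPM at 6W and at 276 and 260 CPM at 3M (log2 fold change 0.70, adjusted p = 0.14), and the opposite arm miR-205-3p had a log2 fold change of 0.42 (adjusted p = 0.35). These 2 rows were higher in both 3M libraries but were not called, and their fold changes were below that of miR-205-5p.

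The miR-200 family, which keeps cells epithelial by holding down the repressors Zeb1 and Zeb2, had no row called by edgeR. miR-141-3p was at 2108 and 2001 CPM at 6W and at 3934 and 2653 CPM at 3M (log2 fold change 0.68, adjusted p = 0.21). miR-200c-3p, from the same cluster, was at 639 and 631 CPM at 6W and at 1116 and 887 CPM at 3M (log2 fold change 0.66, adjusted p = 0.14). miR-200a-3p, the most abundant of the epithelial list over the 4 libraries and from another cluster, was at 5053 and 4575 CPM at 6W and at 5858 and 7360 CPM at 3M (log2 fold change 0.46, adjusted p = 0.25). For each of these, both 3M libraries were above both 6W libraries. miR-203-3p, a miRNA of differentiating skin epithelium, was at 528 and 535 CPM at 6W and at 515 and 632 CPM at 3M, and its libraries overlapped.

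Over the whole epithelial list (miR-200 family, miR-205 and miR-203), 19 rows were tested. Of these, 1 was higher past the study threshold, against 4.50% of all tested miRNAs. An unadjusted p under 0.05 was reached by 6 (148 of all 822), and DESeq2 called 2 higher (3.53% of all tested miRNAs). In 13 of the 19 the 3M libraries were wholly above the 6W libraries, against 26.5% of all tested miRNAs, and in none wholly below. The median log2 fold change was 0.46, against 0.02 for all tested miRNAs. The summed level of the list was 12784 and 11460 CPM at 6W and 19219 and 18936 CPM at 3M.

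Genes of the thymic epithelium were read from the RNA libraries, which were made from the same tissue and ages. Counts of transcripts were summed per gene and tested in the same way over 14805 genes. Of these, 1 was called (0.00675%), and 1.29% were higher and 0.817% lower at 3M past the study threshold. An unadjusted p under 0.05 was reached by 14.3% of all genes, by 7.81% higher and by 6.46% lower at 3M. None of the 16 genes of the epithelial list was called by edgeR, 5 had an unadjusted p under 0.05, all higher at 3M (7.81% of all genes), and DESeq2 called 3 higher, against 1.23% of all genes. Trp63, a regulator of epithelial progenitors, was at 58.1 and 54.3 CPM at 6W and at 90.8 and 86.5 CPM at 3M (log2 fold change 0.66, SE 0.10, adjusted p = 0.18). Ly75, a receptor of cortical epithelium and dendritic cells, was at 302.4 and 283 CPM at 6W and at 464 and 414 CPM at 3M (log2 fold change 0.58, SE 0.11, adjusted p = 0.21). The median of the 16 genes was -0.02, with Foxn1, the main regulator of thymic epithelium, at -0.44 (SE 0.20) and Krt8, a keratin of cortical epithelium, at -0.02 (SE 0.20). The summed level of the epithelial genes was 2141 and 2128 CPM at 6W and 2350 and 2558 CPM at 3M.

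The miR-29 family is known for holding down collagens and other matrix genes and, in thymic epithelium, for setting the response to interferon. Rows miR-29c-3p and miR-29-y rose. miR-29c-3p was at 23.9 and 22.4 CPM at 6W and at 68.8 and 51.5 CPM at 3M, a 2.60-fold rise (log2 fold change 1.38, SE 0.26, adjusted p = 0.045). miR-29-y, the row close to miR-29a-3p, was at 32.5 and 31.7 CPM at 6W and at 93.4 and 86.3 CPM at 3M, a 2.80-fold rise (log2 fold change 1.49, SE 0.25, adjusted p = 0.019). For both rows the gap between the ages was larger than the gap between replicates of either age.

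miR-29a-3p carried most of the family's counts, at 3240 and 3271 CPM at 6W and at 6280 and 5364 CPM at 3M. Its log2 fold change of 0.84 (SE 0.19) had an adjusted p of 0.081 and was below the fold change limit of the study threshold. miR-29b-3p was at 126.04 and 110 CPM at 6W and at 198 and 184 CPM at 3M (log2 fold change 0.70, adjusted p = 0.21). All 8 tested rows were above 0, with a median of 0.86, and 2 were higher past the study threshold, against 4.50% of all tested miRNAs. In the 2W libraries all rows shown in the sequences of this family were lower than at 6W, miR-29a-3p at 2044 and 1729 CPM. Summed by seed, the 3 mouse miRNAs miR-29a-3p, miR-29b-3p and miR-29c-3p had a log2 fold change of 0.84 and an adjusted p of 0.0501 over 359 seed families, just outside the limit.

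Collagen genes, known targets of miR-29, were on the list of fibroblast and smooth muscle genes. Col1a1 was at 77.2 and 65.9 CPM at 6W and at 39.8 and 35.9 CPM at 3M (log2 fold change -0.92, SE 0.12, adjusted p = 0.18). Col1a2 was at 89.0 and 78.3 CPM at 6W and at 67.1 and 58.5 CPM at 3M (log2 fold change -0.42, SE 0.13, adjusted p = 0.28). None of the 7 genes of this list was called by edgeR. An unadjusted p under 0.05 was reached by 3 (1 higher and 2 lower, against 14.3% of all genes in either direction). DESeq2 called 1 lower, against 1.07% of all genes. Of the 7, 3 were above 0. Pdgfra, a receptor of fibroblasts and the 1 that was higher, was at 16.4 and 13.6 CPM at 6W and at 24.4 and 19.5 CPM at 3M (log2 fold change 0.55, SE 0.20, adjusted p = 0.31), while Pdgfrb, a receptor of the cells around vessels, was at 0.11 (SE 0.19) and Myh11, a myosin of smooth muscle, at 0.15 (SE 0.20) in log2 fold change. A link between the miRNA and the gene levels was not tested.

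**Figure D3:**
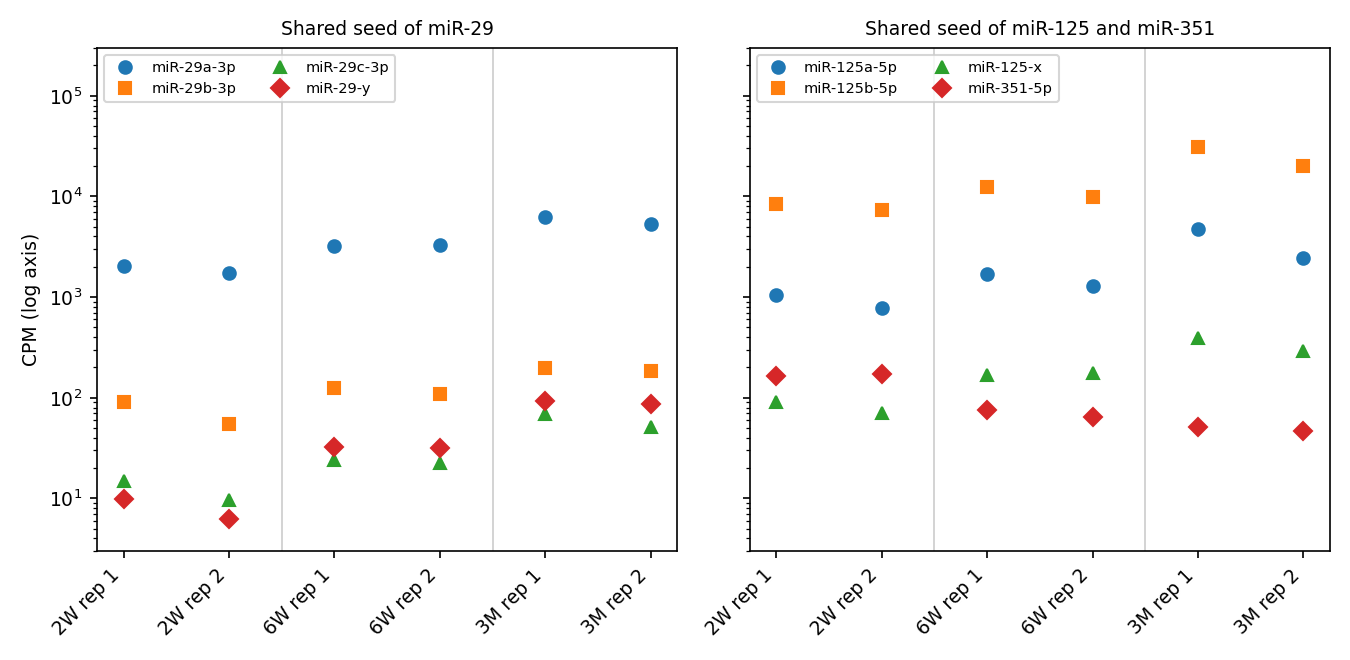
Level in each library, in CPM on a log axis, of rows that share a seed: miR-29 on the left and miR-125 with miR-351 on the right. All miR-29 rows are higher in both 3M libraries than in both 6W libraries, and on the right miR-351-5p is lower at 3M while the 3 miR-125 rows are higher.

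The seed shared by miR-125a, miR-125b, lin-4 and miR-351 gave rows that went in opposite directions. miR-125b, known from blood stem cells and early lymphoid cells, was abundant. miR-125b-5p was at 12527 and 9849 CPM at 6W and at 30671 and 19900 CPM at 3M, a log2 fold change of 1.18 (SE 0.24, adjusted p = 0.053). miR-125a-5p was at 1680 and 1282.5 CPM at 6W and at 4793 and 2436 CPM at 3M (log2 fold change 1.29, SE 0.32, adjusted p = 0.085). Both were past the study threshold, and in both the 3M libraries differed more from each other than the 6W libraries did.

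miR-351-5p, from the X chromosome, was at 75.8 and 64.9 CPM at 6W and at 51.6 and 47.1 CPM at 3M (log2 fold change -0.51, SE 0.21, adjusted p = 0.23). The row lin-4-x, whose sequence is close to miR-125b, had only 5 and 2 counts in the 6W libraries, against 38 and 15 in the 3M libraries. It was past the study threshold (log2 fold change 2.78, SE 0.68), but no 6W or 2W library reached the level of the expression filter, so that the row was tested only because it was high at 3M and had to differ. Without lin-4-x, 10 rows of these families were tested, of which 2 were higher past the study threshold, miR-125a-5p and miR-125b-5p, against 4.50% of all tested miRNAs. Of the 10, 7 were above 0, the median was 0.55, and 7 had an unadjusted p under 0.05 (148 of all 822). None was called by edgeR, while DESeq2 called 3 higher (3.53% of all tested miRNAs). With lin-4-x counted, 3 of 11 were past the study threshold, and this became 1 of 11 without 3M replicate 1, where the log2 fold change of miR-125b-5p was 0.83. By edgeR, 4 of the 11 were called higher with the 4 libraries alone, against 16 of all 822. With a replicate block 2 of the 11 were called higher, against 6 of all 822. With no filter 4 of the 11 were called higher, against 34 of all 822. By seed, the family sum of miR-125a-5p, miR-125b-5p and miR-351-5p had a log2 fold change of 1.18 and an adjusted p of 0.0501.

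miR-99a and let-7c are made from the chromosome 16 transcript that also gives rise to miR-125b, miR-100 from that on chromosome 9, and miR-99b and let-7e from the transcript of miR-125a. miR-99a-5p was at 8454 and 10472 CPM at 6W and at 20521 and 15307 CPM at 3M (log2 fold change 0.92, SE 0.22, adjusted p = 0.085). miR-100-5p was at 5015 and 6151 CPM at 6W and at 8422 and 8718 CPM at 3M (log2 fold change 0.62, adjusted p = 0.16). let-7e-5p was at 309 and 295.3 CPM at 6W and at 593 and 465 CPM at 3M (log2 fold change 0.81, adjusted p = 0.087). All 13 tested rows of the miR-10, miR-99 and miR-100 families were above 0, with a median of 0.62, and in 9 the 3M libraries were wholly above the 6W libraries, against 26.5% of all tested miRNAs. Only miR-99-x was past the study threshold among them, and none was called by edgeR. Of the 13, 6 had an unadjusted p under 0.05 (148 of all 822) and DESeq2 called 2 higher (3.53% of all tested miRNAs). 3M replicate 1 carried the larger share of this difference: without it the median of the 13 rows was 0.47, and without 3M replicate 2 it was 0.90.

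miR-144 and miR-451, made from 1 transcript under the erythroid factor Gata1, and miR-486 are the main miRNAs of red blood cells. With edgeR 1 row was called. With DESeq2 6 of the 9 tested rows were called, all higher, against 3.53% of all tested miRNAs called higher. The row called by edgeR was miR-486-x, at 11.9 and 14.0 CPM at 6W and at 39.2 and 52.7 CPM at 3M. It rose 3.55-fold (log2 fold change 1.83, SE 0.25, adjusted p = 0.012). The mouse row miR-486a-5p (its twin miR-486b-5p has nearly the same counts) was at 229 and 243 CPM at 6W and at 424 and 885 CPM at 3M (log2 fold change 1.47, SE 0.32, adjusted p = 0.065).

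miR-144-3p was at 516 and 610 CPM at 6W and at 923 and 2439 CPM at 3M (log2 fold change 1.58, SE 0.40, adjusted p = 0.087). miR-144-5p was at 12.5 and 10.5 CPM at 6W and at 21.4 and 45.1 CPM at 3M (log2 fold change 1.52, adjusted p = 0.068). miR-451a was at 187 and 172 CPM at 6W and at 257 and 606 CPM at 3M (log2 fold change 1.27, adjusted p = 0.091). In each of these, both 3M libraries were above both 6W libraries, and 3M replicate 2 was more than 2 times as high as 3M replicate 1.

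All 9 tested erythroid rows were above 0, with a median of 1.47, and 7 were past the study threshold, against 4.50% of all tested miRNAs. One of the 7, miR-144-y, did not reach the level of the expression filter in either 6W library. The size of the difference rested on 3M replicate 2. Without it, the median was 0.80 and 1 row, miR-486-x, was past the study threshold and called (log2 fold change 1.56, adjusted p = 0.043). Without 3M replicate 1, the median was 1.91. The summed level of the list was 1256 and 1349 CPM at 6W and 2153 and 5071 CPM at 3M.

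Red blood cell genes in the RNA libraries stood apart in the library of the same number. The alpha globin gene Hba-a1 was at 75.0 and 74.4 CPM at 6W, 58.8 CPM in 3M replicate 1 and 304 CPM in 3M replicate 2. Hbb-bs, a beta globin gene, was at 246 and 197 CPM at 6W and at 313 and 1177 CPM at 3M. Alas2, the first enzyme of haem synthesis in red cells, was at 7.46 and 4.99 CPM at 6W and at 8.66 and 34.9 CPM at 3M. Whether the small RNA and RNA libraries with the same number come from the same thymus is not given in the labels.

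Of the 13 genes on the red blood cell list, 7 were tested. None was called by edgeR, and 3 had an unadjusted p under 0.05 (14.3% of all genes). DESeq2 called 1 higher, against 1.23% of all genes. The summed level of the list was 483 and 403 CPM at 6W, 512 CPM in 3M replicate 1 and 2170 CPM in 3M replicate 2. Without 3M replicate 2, the log2 fold change of Hba-a1 was -0.40 and that of Hbb-bs 0.45. The part of residual blood in the erythroid miRNAs was not tested.

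**Figure D4:**
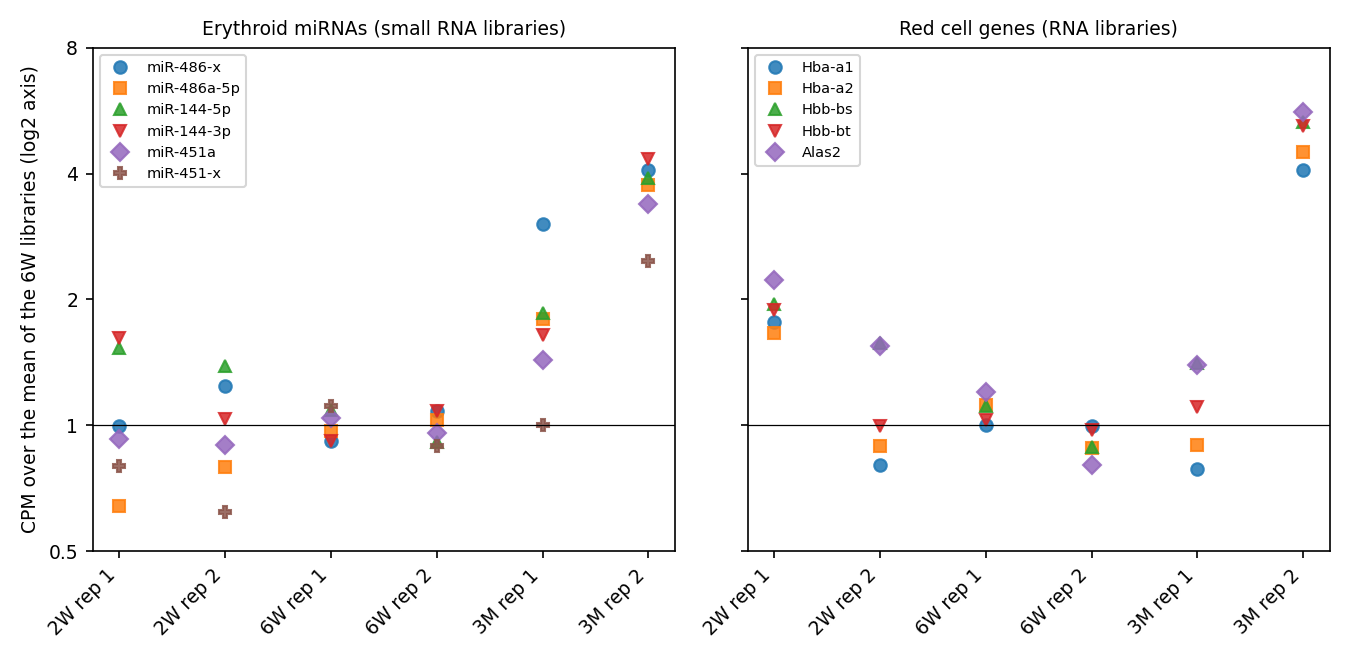
Level of 6 erythroid miRNAs in the small RNA libraries (left) and of 5 red cell genes in the RNA libraries (right), as CPM over the mean of the 6W libraries on a log2 axis. All are highest in 3M replicate 2, while in 3M replicate 1 miR-486-x stays high and the alpha globin genes lie below the 6W mean.

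Other cell types of blood and stroma were read from lists of their miRNAs. None of the 5 tested rows of the myeloid list, which includes miR-223, was past the study threshold, and their median was 0.25, which became -0.02 without 3M replicate 1 and 0.53 without 6W replicate 2. All 4 rows of endothelial miR-126 were higher in both 3M libraries, as were 26.5% of all tested miRNAs, with log2 fold changes from 0.22 to 0.71 and none past the study threshold. Of 6 endothelial genes, 3 were above 0 and none was called by edgeR or DESeq2. The 1 with an unadjusted p under 0.05 was lower, Pecam1, an adhesion molecule of vessels, at 177 and 169 CPM at 6W and at 136 and 147 CPM at 3M (log2 fold change -0.28, SE 0.10, adjusted p = 0.30). Of 17 smooth muscle and fibroblast rows, 16 were above 0 with a median of 0.42, and 1 was higher past the study threshold, against 4.50% of all tested miRNAs. This count became 2 without 6W replicate 1, 3 without 6W replicate 2 and 4 without 3M replicate 2. The row past the threshold was miR-199-y, at 1.19 and 1.31 CPM at 6W and at 4.51 and 3.38 CPM at 3M. The most abundant of this list, miR-143-3p, stood at 58332 and 76098 CPM at 6W and at 81464 and 92601 CPM at 3M (log2 fold change 0.37, SE 0.21, adjusted p = 0.38), a difference that did not pass the test.

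Of the miRNAs rich in brown fat, 12 were tested, and miR-193b-3p alone was past the study threshold, against 4.50% of all tested miRNAs. It was at 6.91 and 8.77 CPM at 6W, 32.3 CPM in 3M replicate 1 and 10.4 CPM in 3M replicate 2, so that a single library carried the difference. The adipocyte genes were also highest in RNA library 3M replicate 1. Plin1, a coat protein of lipid droplets, was at 10.95 and 11.8 CPM at 6W and at 38.5 and 20.6 CPM at 3M (log2 fold change 1.37, SE 0.32, adjusted p = 0.22). None of the 9 adipocyte genes was called by edgeR, 6 had an unadjusted p under 0.05, all higher at 3M (7.81% of all genes), and DESeq2 called 2 higher, against 1.23% of all genes. Their summed level was 188 and 184 CPM at 6W and 416 and 222.8 CPM at 3M.

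Developing T cells make up most of the thymus, and their miRNAs led the libraries. miR-181a-5p, which sets the sensitivity of the T cell receptor in thymocytes, took 29.3% of the scaled counts on average over the 4 libraries. It stood at 317914 and 322084 CPM at 6W and at 254663 and 278796 CPM at 3M (log2 fold change -0.26, SE 0.17, adjusted p = 0.43). Both 3M libraries were below both 6W libraries, but the difference did not pass the test. The opposite arm of one of its hairpins differed more: miR-181a-1-3p was at 14086 and 10030 CPM at 6W and at 4060 and 7668 CPM at 3M (log2 fold change -1.04, SE 0.30, adjusted p = 0.12).

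The miR-181 rows went the same way. The row miR-181-x, which holds all of miR-181a-5p and further bases, was at 4165 and 4027 CPM at 6W and at 2070 and 2440 CPM at 3M (log2 fold change -0.86, adjusted p = 0.085). miR-181c-3p was at 1146 and 960 CPM at 6W and at 468 and 733 CPM at 3M (log2 fold change -0.81, adjusted p = 0.14). miR-150-5p and miR-146a-5p, which are also on the thymocyte and T cell list, lay on the other side. miR-146a-5p was at 1375 and 1701 CPM at 6W and at 3228.5 and 2329 CPM at 3M (log2 fold change 0.85, adjusted p = 0.11), and miR-150-5p had a log2 fold change of 0.53 (adjusted p = 0.23).

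Of the 24 rows on the thymocyte and T cell list, 1 was past the study threshold, 15 were below 0 and the median was -0.29. None was called by edgeR, and 6 had an unadjusted p under 0.05 (148 of all 822). DESeq2 called 1 higher and 3 lower, against 3.53% and 1.82% of all tested miRNAs. The summed level of the list was 408111 and 395351 CPM at 6W and 318082 and 348708 CPM at 3M. The genes of double positive thymocytes, the most numerous thymocytes, were lower in the same direction. All 8 genes had a log2 fold change below 0, none was called by edgeR, 5 had an unadjusted p under 0.05 (6.46% of all genes were lower at this level) and DESeq2 called 2 lower, against 1.07% of all genes. Cd8a, a coreceptor of these cells, was at 1481 and 1553 CPM at 6W and at 1070 and 1142 CPM at 3M (log2 fold change -0.46, SE 0.09, adjusted p = 0.21). Rag1, needed to rearrange T cell receptor genes, had a log2 fold change of -0.11 (SE 0.10). Of 6 genes of mature T cells, 2 were above 0, the median was -0.05 and none had an unadjusted p under 0.05 or was called by edgeR or DESeq2.

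The other miRNAs among the 5 most abundant did not differ between the ages beyond the spread. miR-26a-5p was at 50847 and 41999 CPM at 6W and at 56439 and 45060 CPM at 3M (log2 fold change 0.13, SE 0.21). miR-27b-3p was at 33083 and 37191 CPM at 6W and at 30508 and 36278 CPM at 3M (log2 fold change -0.07, SE 0.19). miR-142a-5p, a miRNA of blood cells, was at 39138 and 29176 CPM at 6W and at 28716 and 32957 CPM at 3M (log2 fold change -0.15, SE 0.35). In all 3 the libraries of the ages overlapped.

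The miR-17 to miR-92 cluster and its paralogues are tied to proliferation. Of 43 rows tested, 33 were below 0, and the median was -0.16 (-0.24 without 3M replicate 1). In 19 the 3M libraries were wholly below the 6W libraries, against 23.6% of all tested miRNAs. An unadjusted p under 0.05 was reached by 5 of the 43 (148 of all 822), and none was called by edgeR or DESeq2. Past the study threshold was 1 row, miR-25-x, with 2.37 and 2.85 CPM at 6W and 1.53 and 0.983 CPM at 3M. The cycling gene Mki67 was at 1133 and 1242 CPM at 6W and at 829 and 659 CPM at 3M (log2 fold change -0.67, SE 0.15, adjusted p = 0.21). The 4 cycling genes were all below 0, with a median of -0.26.

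Some miRNA clusters are known from fetal and newborn tissue. The X chromosome cluster from miR-322 to miR-450 had 17 tested rows, of which 13 were below 0, 2 were lower past the study threshold (2.92% of all tested miRNAs) and the median was -0.29. Leaving out a 3M library gave a median of -0.44 (replicate 1 left out) or -0.48 (replicate 2 left out). In 11 of the 17 the 3M libraries were wholly below the 6W libraries, against 23.6% of all tested miRNAs, and 6 had an unadjusted p under 0.05 (148 of all 822), with 1 called lower by DESeq2 (1.82% of all tested miRNAs). Over the 15 rows with a mean of at least 10 counts in the 4 libraries the median was -0.51. miR-450b-5p was at 49.0 and 40.2 CPM at 6W and at 18.5 and 22.5 CPM at 3M (log2 fold change -1.12, SE 0.23, adjusted p = 0.051). miR-542-y was at 7.61 and 8.33 CPM at 6W and at 3.97 and 3.82 CPM at 3M (log2 fold change -1.03, adjusted p = 0.087). miR-450a-5p was at 116 and 114 CPM at 6W and at 65.4 and 88.9 CPM at 3M (log2 fold change -0.58, SE 0.22, adjusted p = 0.22). The most abundant row of the cluster was miR-322-3p, at 185 and 219 CPM at 6W and at 175 and 159 CPM at 3M (log2 fold change -0.28, SE 0.21, adjusted p = 0.51).

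In the imprinted region between Dlk1 and Dio3 on chromosome 12, whose miRNAs are made from the maternal copy, 41 rows with a mouse name were tested. Rows with a suffix are not placed in the genome and are not in this count, and the 9 tested ones that bear names of the region were below 0 in 8 cases. Only miR-127-y was abundant among them, with a mean of 512.5 counts in the 4 libraries and a log2 fold change of -0.82, while miR-541-x, the 1 row above 0 (0.54), and the other 7 rows rest on few counts, with a mean of 0.5 in miR-411-y, the lowest. The filter used all ages, and 14 of the 41 reached its level in fewer than 2 of the 4 libraries compared, having passed with the 2W libraries. Of the 41, 36 were below 0, with a median of -0.44 and 2 lower past the study threshold (2.92% of all tested miRNAs), and in 17 the 3M libraries were wholly below the 6W libraries, against 23.6% of all tested miRNAs. None was called by edgeR or by DESeq2, and 5 had an unadjusted p under 0.05, against 148 of all 822. Over the 26 rows with a mean of at least 10 counts in the 4 libraries, 23 were below 0, the median was -0.37 and 11 were wholly below. miR-127-3p was at 265 and 274 CPM at 6W and at 206.3 and 179 CPM at 3M (log2 fold change -0.49, SE 0.20, adjusted p = 0.23). miR-329-3p, past the study threshold, was at 2.96 and 2.63 CPM at 6W and at 1.17 and 1.31 CPM at 3M. miR-127-5p, the other row past it, was at 4.05 and 4.82 CPM at 6W and at 2.53 and 0.983 CPM at 3M. The size of the shift depended on the 3M library, with a median of -0.28 without 3M replicate 2 and of -0.73 without 3M replicate 1. The levels at 2W were far higher, 1579 and 1711 CPM summed over the region, against 610 and 614 CPM at 6W and 532 and 383 CPM at 3M.

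miR-335-5p, from an intron of the imprinted gene Mest, was at 24.1 and 22.9 CPM at 6W and at 13.9 and 12.1 CPM at 3M (log2 fold change -0.85, SE 0.22, adjusted p = 0.087). Its 2W level was 140.6 and 156 CPM. Mest itself was at 0.679 and 0.485 CPM at 6W and at 0.902 and 0.851 CPM at 3M in the RNA libraries (log2 fold change 0.59, SE 0.52).

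The let-7 family, known for its rise as tissues mature, had rows on both sides. Of its 24 tested rows, 17 were above 0 with a median of 0.11 (0.06 without 3M replicate 1), and 1 was higher and 1 lower past the study threshold, against 4.50% and 2.92% of all tested miRNAs. miR-98-x was at 1.19 and 1.21 CPM at 6W and at 3.52 and 2.84 CPM at 3M (log2 fold change 1.41, SE 0.44, adjusted p = 0.14). let-7f-2-3p, from the opposite arm of a let-7 hairpin, was at 2.67 and 2.85 CPM at 6W and at 1.08 and 1.53 CPM at 3M (log2 fold change -1.08, SE 0.45, adjusted p = 0.23). In the miR-30 family 13 rows were tested, with a median of -0.13 that became 0.07 without 6W replicate 1. Of these rows, 5 had an unadjusted p under 0.05 (148 of all 822) and DESeq2 called 1 lower (1.82% of all tested miRNAs). miR-30e-5p was the most abundant of the family, at 48606 and 33093 CPM at 6W and at 20704 and 27426 CPM at 3M (log2 fold change -0.76, SE 0.26, adjusted p = 0.16). None of the miR-30 rows was past the study threshold.

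**Figure D5:**
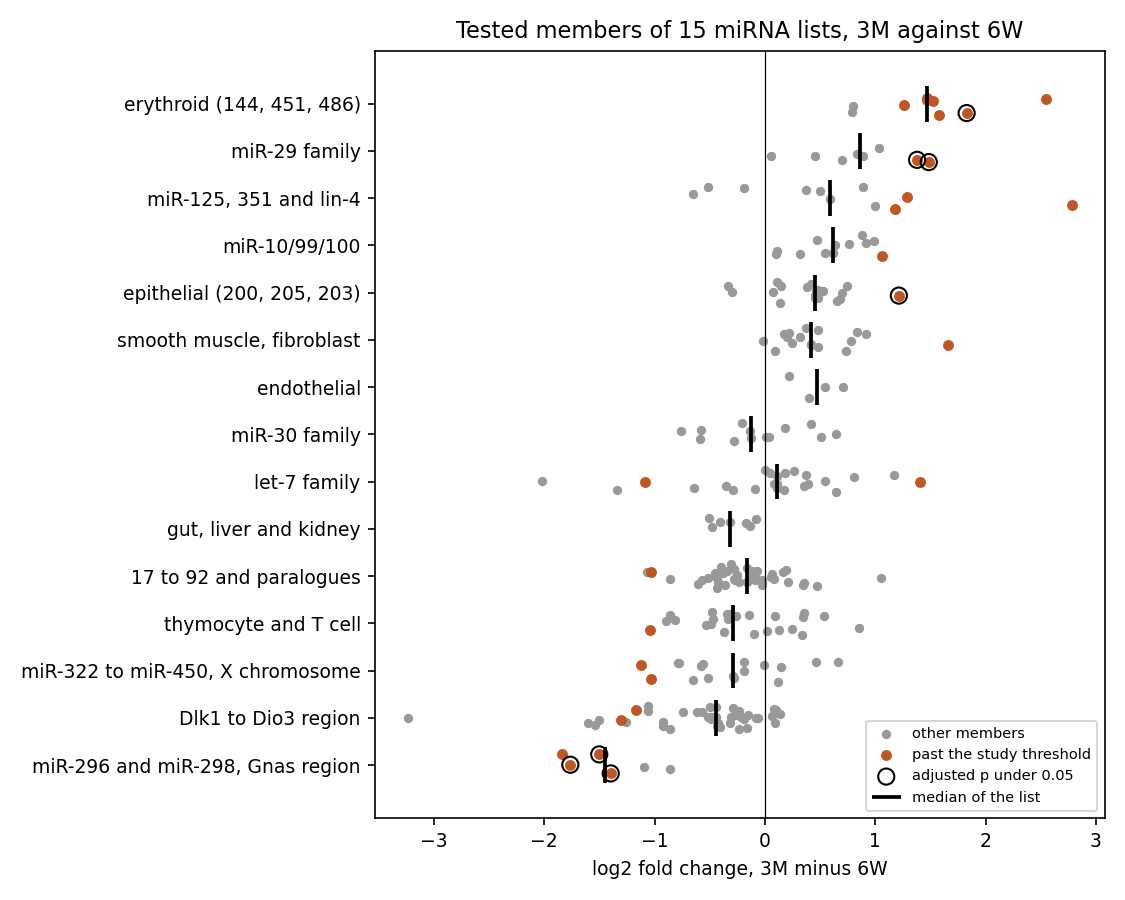
Log2 fold change of 3M minus 6W for the tested rows of 15 miRNA lists, 1 point per row, with the median of each list as a bar. The medians run from -1.45 for miR-296 and miR-298 to 1.47 for the erythroid rows, with miR-29, miR-125 and miR-10/99/100 between 0.59 and 0.86.

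By seed, 5 of the 359 families of mouse miRNAs were called (1.39%), and DESeq2 called 20. Each of the 5 held a single tested mouse miRNA. Besides miR-296-3p, miR-298-5p and miR-205-5p they were miR-450b-5p (log2 fold change -1.12, SE 0.20, adjusted p = 0.032) and miR-138-5p. miR-138-5p, a miRNA of neurons and their synapses, was at 0.593 and 0.657 CPM at 6W and at 3.88 and 2.73 CPM at 3M (log2 fold change 2.39, SE 0.45, adjusted p = 0.035 over families and 0.051 over miRNAs). It rests on few tags, 6 and 6 at 6W against 43 and 25 at 3M. Its 6W libraries were under the level of the expression filter, which it reached at 2W, with 19 and 20 counts, and at 3M.

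The remaining miRNAs among the smallest p in each direction were low. miR-574-5p was higher, at 6.52 and 7.45 CPM at 6W and at 17.3 and 14.5 CPM at 3M (log2 fold change 1.19, SE 0.27, adjusted p = 0.070). Its host gene Fam114a1 had a log2 fold change of 0.05 (SE 0.16). miR-677-5p was lower, at 5.93 and 6.36 CPM at 6W and at 2.34 and 3.38 CPM at 3M. miR-876-5p, with 11 and 7 counts at 3M after 32 and 22 in the younger libraries, and miR-301-y, with 4 and 3 after 13 and 14, were lower as well and rest on these few counts.

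The proteins that make and load miRNAs were read from their genes. Of 13 gene symbols tested, of which Tut7 and Zcchc6 name the same gene in RefSeq and so share its transcripts, none was called by edgeR or DESeq2, and 2 had an unadjusted p under 0.05 (14.3% of all genes). Drosha, which cuts the primary transcript, had a log2 fold change of -0.03 (SE 0.10), and Dicer1, which cuts the hairpin, of 0.19 (SE 0.11). Ago2, which carries the mature miRNA, was at 427 and 448.8 CPM at 6W and at 546 and 536 CPM at 3M (log2 fold change 0.31, SE 0.09, adjusted p = 0.27).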

How the data were processed

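The authors deposited tag counts per miRNA, with TPM (0.01 in place of 0), lengths and totals (other columns), for 6 small RNA libraries (HiSeq 2500), and estimated counts and FPKM per transcript for 6 ribosomal RNA-depleted libraries. The TPM imply library totals of which the table holds 90.6% to 92.3%. No deposited miRNA count equals 1. The submitters' processing notes name Bowtie 0.12.2 and mm8. How tags were assigned is not given in the sources used here. Counts were tested with edgeR 4.0.16 in R 4.3.3 (TMM, filterByExpr by age, quasi-likelihood F test, all 6 libraries, age as the only term, contrast 3M minus 6W), with Benjamini-Hochberg adjustment, and with DESeq2 1.42.0 as an alternative. Summaries used pandas 2.3.3 and numpy 2.4.6 under Python 3.11.15. The estimated counts of each gene's transcripts were rounded and added up, with symbols differing only by case taken as one gene. Standard errors were computed from the fold change and F. Families were summed over mouse miRNAs matched by name to RefSeq (bases 2 to 8), and clusters were chains of hairpins under 10 kb apart in GRCm38.p6. The fit was tested on simulated data.

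Named are all called miRNAs, the 10 of smallest p in each direction past the study threshold with libraries that do not overlap, the 5 most abundant, the members of lists of tissue, family and cluster past the threshold or most abundant, and listed genes. miRNAs named beyond this rule were chosen after their values were seen. Members, lists and tests were chosen with earlier results of these data known. The same-numbered libraries were not treated as paired. Other tests left out each library in turn, the filter, TMM or the 2W libraries, or added a replicate block. Medians over rows with a mean of at least 10 counts were added after seeing the data. The circRNA and lncRNA tables were not used here. The spread between replicates was larger than counting noise at each age.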

Additional observations from a re-analysis of the deposited data

How the results depend on the processing

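The study threshold was passed by 61 miRNAs, and by 46 to 74 with 1 library left out. The alternatives on scaling, model, filter and libraries gave 47 (DESeq2), 64 (library totals only), 60 (4 libraries only) and 91 (no filter, 2006 rows). The count of 7 called miRNAs became 44 with DESeq2, 47 with no filter, 23 with the 4 libraries alone, 7 with library totals only and 0 to 22 with 1 library left out, where the lone library of an age is assumed to vary like the others. The 7 were among those called under each alternative that kept all 4 libraries of 6W and 3M. Of the 7, 3 were called without 3M replicate 1 and 6 without 3M replicate 2. Their direction did not change under any alternative. The labels do not say whether the replicate numbers pair the samples. Same-numbered libraries deviated from their age means with correlations of 0.22 (2W and 6W), -0.15 (2W and 3M) and -0.07 (6W and 3M). In the RNA libraries they were -0.06, -0.18 and 0.35 in the same order. These correlations cannot exclude a batch shared by same-numbered libraries. With a replicate block, 10 miRNAs were called, 56 were past the study threshold, 4 families and 0 gene sums were called. The count of 5 called families became 20 with DESeq2, 29 with no filter, 3 with all rows grouped by their deposited sequence (chosen after seeing the data) and 0 to 8 with 1 library left out. The 1 called gene sum, Igf2bp3, became 341 with DESeq2, 19 with no filter, 0 with the 4 libraries alone, 0 with symbols kept apart by case (chosen after seeing the data) and 0 to 4 with 1 library left out. Of the 25 named miRNAs, 3 changed sign with 1 library left out: miR-26a-5p ranged from -0.04301 to 0.273 (-0.00277 without 6W replicate 2), miR-27b-3p from -0.244 to 0.04609 (0.01346 without 6W replicate 2) and miR-142a-5p from -0.3439 to 0.07985 in log2 fold change, none of which was called. The cause of these changes was not tested. Low counts limit miR-138-5p, lin-4-x, miR-301-y and miR-876-5p.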

Other observations

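Lists of miRNAs of distant tissues were measured as well. The 7 rows of multiciliated epithelium (miR-34b, miR-34c and miR-449) had a median log2 fold change of -0.41 and none past the study threshold. The median was -0.21 without 3M replicate 1 and -0.22 without 6W replicate 1, and -0.67 without 3M replicate 2, where 1 row was lower past the study threshold and 1 was called. The 7 rows rich in gut, liver and kidney (miR-192, miR-194 and miR-215) were all below 0, with a median of -0.31. In the exocrine pancreas list, miR-217-5p, a miRNA of acinar cells, was past the study threshold, at 4.84 and 5.70 CPM at 6W and at 2.34 and 2.29 CPM at 3M (log2 fold change -1.18, SE 0.36), while miR-216a-5p had a log2 fold change of -0.22 (SE 0.36). miR-122-5p, the main miRNA of hepatocytes, was at 6.32 and 4.82 CPM at 6W and at 6.94 and 2.40 CPM at 3M. The liver gene Alb was at 123 and 0.84 CPM at 6W and at 182.2 and 2.02 CPM at 3M in the RNA libraries, and at 152 and 134 CPM at 2W, so that replicate 2 of 6W and of 3M stood apart from the other libraries. Of the 7 striated muscle rows, miR-133a-3p was at 9.58 and 8.77 CPM at 6W and at 16.8 and 16.7 CPM at 3M (log2 fold change 0.87, SE 0.23), and miR-206-3p was at 7.01 and 10.96 CPM at 6W and at 5.05 and 5.35 CPM at 3M (log2 fold change -0.79, SE 0.29).

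Of the 9 tested rows of the nervous system list, 3 were above 0 and 6 below. Their median was -0.41 (-0.07 without 3M replicate 1). The 1 row higher past the study threshold was miR-138-5p, against 4.50% of all tested miRNAs. In this list miR-128-3p, which is also abundant in lymphocytes, was at 22368 and 18389 CPM at 6W and at 10300 and 15080 CPM at 3M (log2 fold change -0.68, SE 0.23). Of 7 myeloid genes, none was called by edgeR, 3 had an unadjusted p under 0.05 (1 higher and 2 lower, against 7.81% and 6.46% of all genes) and DESeq2 called 2 lower, of 159 lower among all 14805 genes. The median log2 fold change was 0.10, and the summed level was 537 and 495 CPM at 6W and 540 and 507 CPM at 3M. Those lower were the neutrophil genes S100a8 and S100a9, while 4 of the 7 were above 0. S100a8 was at 34.2 and 26.8 CPM at 6W and at 2.47 and 8.15 CPM at 3M (log2 fold change -2.49, SE 0.50, adjusted p = 0.21). Igf2bp3, an RNA-binding protein of fetal and newborn tissue, was the 1 gene of 14805 that was called, at 15.5 and 16.8 CPM at 6W and at 2.77 and 2.46 CPM at 3M (log2 fold change -2.63, SE 0.18, adjusted p = 0.0398). At 2W it was at 80.0 and 101 CPM. It was no longer called with the 4 libraries alone (adjusted p = 0.11), with a replicate block (adjusted p = 0.13), with symbols kept apart by case (adjusted p = 0.070), or without any one library other than 2W replicate 2 (adjusted p from 0.053 to 0.23 by edgeR), while its log2 fold change was from -2.70 to -2.57 with 1 library left out.

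Of the rows without a species prefix, 172 tested rows shared their first 18 bases with a tested mouse row. Where there were several such mouse rows, only the first listed was compared. In 50 of the 172 pairs the log2 fold changes had opposite signs. These pairs share libraries and near-identical tags.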
